A study of Mus musculus with 3008 samples.

Results

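The 9 chemokine receptor genes described here are Ccr1, Ccr2, Ccr3, Ccr4, Ccr6, Ccr8, Cxcr3, Cxcr4 and Cxcr6, taken by name from a count table of 23725 genes, and all 9 were detected in all 3 libraries. They were read in every cell of the table and, within the colon, according to whether the same cell held a transcript of Gata3 or of Maf. The cells were Foxp3+ regulatory T cells, which hold other immune cells in check, sorted as live TCRb+ CD4+ GFP+ cells from 7-month-old male mice of the strain B6 Foxp3-Ires-Gfp, so that every library shares the Foxp3 reporter allele. Colon lamina propria cells came from 2 libraries, called colon 1 and colon 2, which held 20.6% and 58.9% of the 3008 cells, and spleen cells came from 1 library with 20.5%. Colon tissue was digested with collagenase and dispase whereas spleen was dissociated mechanically, so the effects of tissue and of dissociation cannot be told apart. No animal is named in the labels, and colon 2 is called rep2 in the titles and rep1b in the sample type. Each library is therefore shown apart, each tissue counts as 1 sample, and no comparison carries a p-value.

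Chemokine receptors are G protein coupled receptors that steer migrating leukocytes along gradients of small secreted proteins, the chemokines. CC receptors and CXC receptors are named for the spacing of conserved cysteines in the chemokines they bind. In regulatory T cells, receptor sets differ between lymphoid organs, skin and mucosa, and are known to follow the transcription factors that a cell expresses. GATA3 is the factor of type 2 T cells and of many tissue regulatory T cells, and c-MAF, the product of Maf, drives Il10 and marks colonic regulatory T cells that respond to microbes.

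The libraries were made by inDrops, a droplet method in which each captured transcript is counted by its unique molecular identifier (UMI). Cells had a median of 1767 UMIs in colon 1, 2026.5 in colon 2 and 1847 in spleen. Levels are UMIs per 1000000 UMIs of a library or class (CPM), with exact 95% Poisson intervals that cover counting error only. Shares of cells are given at equal depth, 1000 UMIs drawn from every cell (9, 28 and 4 shallower cells of colon 1, colon 2 and spleen were set aside), with the share at full depth beside them. Cell barcodes shared between libraries numbered 9 for both colon libraries, 5 for colon 1 and spleen and 11 for colon 2 and spleen. All 8 genes of a T and regulatory T cell identity list were detected, summing to 6586 and 6437 CPM in colon 1 and colon 2 and 3320 CPM in spleen. All 8 genes of a mast cell, basophil and eosinophil list and all 4 of a neutrophil list had 0 UMIs. The sort contained no cell type that should lack all of these receptors, so a background share of the receptors themselves could not be measured. As a guide to stray transcripts, a list of 7 B and plasma cell genes summed to 15.96 and 12.8 CPM in colon 1 and colon 2 and 13.5 CPM in spleen.

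Of the 9 genes, 6 lie on mouse chromosome 9. In the mm10 annotation Cxcr6 (chr9:123806475-123811760), Ccr1 (chr9:123962124-123968692), Ccr3 (chr9:124021972-124031689) and Ccr2 (chr9:124101950-124113557) follow each other in this order, while Ccr8 (chr9:120092114-120094906) and Ccr4 (chr9:114490316-114504916) lie farther off. Ccr6 is on chromosome 17, Cxcr3 on X and Cxcr4 on chromosome 1. The body of Cxcr6 lies within Fyco1 on the opposite strand. Fyco1 had 4.79 and 7.91 CPM in colon 1 and colon 2 and 24.7 CPM in spleen, a difference opposite in direction to that of Cxcr6, and whether the counting used strand is not given in the sources used here. Promoter windows are shown for Ccr8 and Ccr2, which moved in opposite directions with Gata3 and Maf in the colon, and for Ccr3, the neighbour of Ccr2. The RefSeq windows (GRCm38.p6) run from 250 bases before to 50 after the annotated start, on the plus strand, at chr9:120091883-120092182 for Ccr8, chr9:124101933-124102232 for Ccr2 and chr9:124021721-124022020 for Ccr3. Capitals mark matches, on either strand, to the GATA motif (AGATAA and its variants TGATAA as well as AGATAG and also TGATAG) or to the core of the MAF recognition element (TGCTGAC).
Ccr8: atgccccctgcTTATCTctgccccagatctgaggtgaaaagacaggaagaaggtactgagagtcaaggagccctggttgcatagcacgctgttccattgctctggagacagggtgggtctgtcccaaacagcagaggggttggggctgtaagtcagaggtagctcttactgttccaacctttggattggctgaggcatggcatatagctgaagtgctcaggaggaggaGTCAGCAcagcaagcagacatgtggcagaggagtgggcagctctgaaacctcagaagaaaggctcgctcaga
Ccr2: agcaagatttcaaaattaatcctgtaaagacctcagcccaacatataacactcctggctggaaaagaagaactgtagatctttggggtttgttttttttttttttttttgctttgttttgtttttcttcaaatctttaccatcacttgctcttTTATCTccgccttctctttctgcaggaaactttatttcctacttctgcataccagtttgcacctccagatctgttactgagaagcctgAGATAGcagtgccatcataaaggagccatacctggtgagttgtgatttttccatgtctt
Ccr3: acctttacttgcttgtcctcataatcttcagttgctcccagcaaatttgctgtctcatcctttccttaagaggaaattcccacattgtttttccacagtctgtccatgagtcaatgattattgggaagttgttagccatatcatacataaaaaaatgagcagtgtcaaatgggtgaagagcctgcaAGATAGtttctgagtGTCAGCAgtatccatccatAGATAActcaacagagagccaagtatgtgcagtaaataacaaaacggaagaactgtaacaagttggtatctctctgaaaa
Ccr8 held a GATA match at -239, read on the other strand as TTATCT, and a MAF match at -22, read as GTCAGCA. The Ccr2 window held GATA matches at -97 and -9 and no MAF match, and that of Ccr3 held GATA matches at -64 and -30 and a MAF match at -49. No match overlapped another. A GATA match was present in 29.8% of 32851 RefSeq mouse promoter windows of the same length and a MAF match in 4.67%. Neither was found in the windows of Ccr1, Ccr4, Cxcr3, Cxcr4 or Cxcr6, and the 2 annotated starts of Ccr6 held 1 MAF match at -193 and 1 GATA match at -70. A match is a stretch of letters, not a measured binding site.

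Together the 9 receptors had 1631.8 CPM in colon 1 and 1545.7 CPM in colon 2, against 339.98 CPM in spleen. A gene was compared if it reached 50 CPM in both colon libraries or in spleen, and it was called where both colon libraries differed from spleen by at least 2-fold in the same direction. Across the 3482 genes compared, 11.7% were called higher in colon and 4.45% lower. Of the 9 receptors 7 were compared, 6 were called higher and 0 lower, while Ccr3 and Ccr8 stayed under 50 CPM everywhere. Ccr1, Ccr4, Ccr6 and Cxcr6 were compared only because of their colon level, so a colon excess was built into their entry, and only Ccr2, Cxcr3 and Cxcr4 reached 50 CPM in spleen. Without ribosomal protein genes in the totals, which made up 17.6% and 16.3% of UMIs in colon 1 and colon 2 and 28.5% in spleen, 7.92% of genes were higher and 7.99% lower. The higher share of all calls was then 49.8%, against 72.5% as first computed, the median gene shifted to a log2 ratio of -0.22 and -0.23, and Cxcr4 lost its call.

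**Figure D1:**
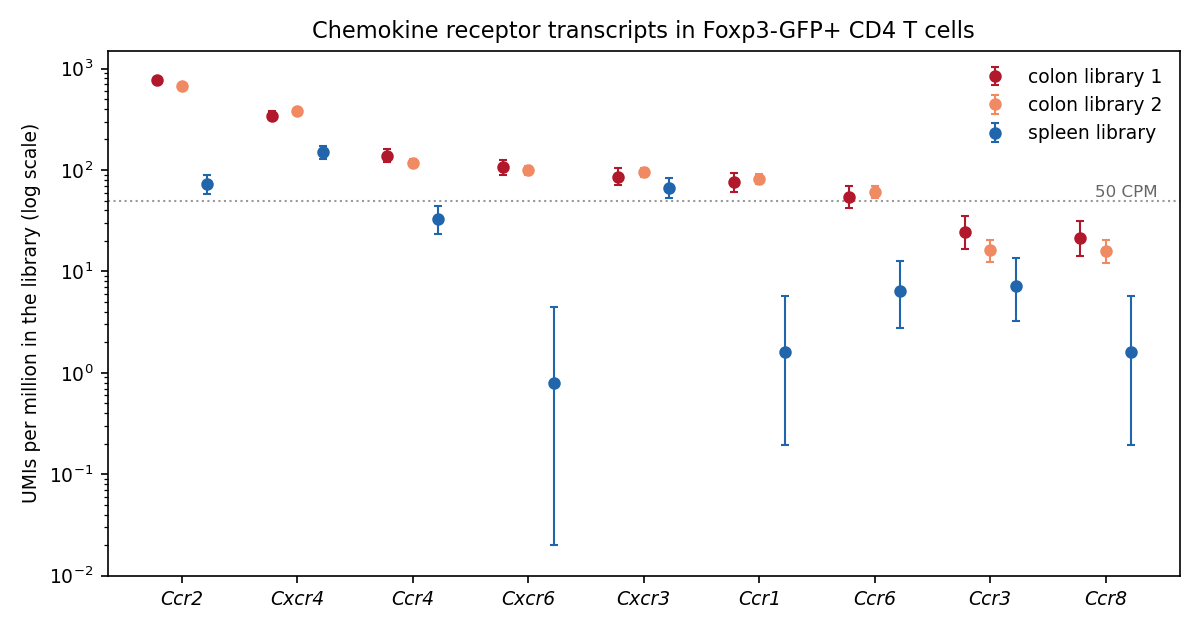
Level of each chemokine receptor in CPM (log scale, vertical axis) in colon 1, colon 2 and the spleen library, with exact 95% Poisson intervals, ordered by colon level. Ccr2 and Cxcr4 are the highest in both colon libraries, the Cxcr3 points of all 3 libraries lie close together, and spleen Cxcr6, Ccr1 and Ccr8 rest on 1 or 2 UMIs.

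Ccr2, the receptor for CCL2 and CCL7 that directs monocytes and effector T cells to inflamed tissue, was the most abundant of the 9 in both colon libraries. It had 778.8 CPM (730.7 to 829.2) in colon 1 and 678.6 CPM (653.1 to 704.9) in colon 2, against 72.5 CPM (58.3 to 88.96) in spleen. The ratios to spleen were 10.7 (8.66 to 13.5) and 9.37 (7.60 to 11.7). At equal depth 36.4% and 38.2% of colon cells held a Ccr2 UMI, against 3.43% of spleen cells, and at full depth 47.01% and 53.4% against 5.83%. Both measures placed spleen far below the colon libraries, and a detecting cell held 3.35 and 2.81 Ccr2 UMIs in the colon and 2.53 in spleen. Ccr2 was also the only one of the 9 whose counting interval separated the colon libraries, with colon 2 below colon 1 by a log2 ratio of -0.20 (-0.30 to -0.09).

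Ccr1, a neighbour of Ccr2 on chromosome 9 that binds CCL3, CCL5 and CCL7, had 75.8 CPM in colon 1 and 81.4 CPM in colon 2, against 1.59 CPM in spleen, where 2 UMIs were counted. Its ratios to spleen were 47.6 (12.8 to 398.8) and 51.1 (14.04 to 424.2). Ccr1 UMIs were found in 4.92% and 6.31% of colon cells and 0.16% of spleen cells at equal depth, and in 9.05%, 10.3% and 0.32% at full depth. The gene was thus near the lowest detectable level in spleen. Myeloid cells also express Ccr1. A monocyte, macrophage and dendritic cell list of 9 genes summed to 15.2 and 34.5 CPM in colon 1 and colon 2 and 3.18 CPM in spleen, and its member Csf1r had 0 UMIs in all libraries. In Ccr1-detecting colon cells the list summed to 64.6 and 69.7 CPM (8 and 31 UMIs, from 2 and 6 of its genes), against 9.74 and 29.96 CPM in the other colon cells. Without every cell that held a UMI of the list, a choice made after seeing the data, Ccr1 kept its call in colon over spleen.

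Ccr3, the eotaxin receptor best known from eosinophils, had 24.7 CPM in colon 1 and 16.1 CPM in colon 2, against 7.17 CPM in spleen. The ratios were 3.45 (1.60 to 8.24) and 2.24 (1.11 to 5.13), but the gene was too low to be compared by the rule. The eosinophil, basophil and mast cell markers, Epx, Siglecf, Fcer1a, Ms4a2, Cpa3, Mcpt1, Mcpt2 and Mcpt8, were all at 0 UMIs. Ccr3 was seen in 2.46% and 1.32% of colon cells and 0.49% of spleen cells at equal depth.

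Cxcr3, the receptor for CXCL9 and CXCL10 that T-bet induces in type 1 T cells, differed least between tissues. It had 86.2 and 95.2 CPM in colon 1 and colon 2, against 66.9 CPM in spleen, with ratios of 1.29 (0.96 to 1.73) and 1.42 (1.12 to 1.83). It was therefore not called, and the interval of colon 1 included equality. At equal depth 6.72% and 7.97% of colon cells and 5.06% of spleen cells held it. Its ligand gene Cxcl10 had 368.6 and 333.96 CPM in colon cells, against 32.6 CPM in spleen cells, and was called higher, but it was compared only because of its colon level.

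Cxcr6, the receptor for CXCL16 found on many tissue-resident T cells, had the highest point ratio of the 9 between colon and spleen. It had 106.9 CPM in colon 1 and 99.6 CPM in colon 2, against 0.80 CPM in spleen, where 1 UMI was counted. The ratios, 134.3 (23.7 to 5343) and 125.1 (22.3 to 4952), have wide intervals because of that 1 UMI, and these overlap the intervals of Ccr1. Cxcr6 was found in 6.07% and 7.40% of colon cells and 0.16% of spleen cells at equal depth.

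Ccr4, which binds CCL17 and CCL22 and is known for homing to skin, had 138.8 and 116.9 CPM in colon 1 and colon 2, against 32.6 CPM in spleen. Its ratios were 4.25 (3.01 to 6.13) and 3.58 (2.60 to 5.06), and it was detected in 8.69% and 9.0% of colon cells and 2.45% of spleen cells at equal depth. Ccr8, the CCL1 receptor gene, which marks regulatory T cells of several tissues and tumours, had 21.5 and 15.8 CPM in colon 1 and colon 2 and 1.59 CPM in spleen (27, 62 and 2 UMIs). The ratios of Ccr8, 13.5 (3.40 to 117.4) and 9.94 (2.64 to 83.9), were high but rested on these few UMIs. It was in 2.95% and 1.83% of colon cells and 0.16% of spleen cells at equal depth. Both genes were higher in each colon library than in spleen, although Ccr8 stayed below the 50 CPM needed for a call.

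Ccr6, the receptor for the epithelial chemokine CCL20, had 54.3 and 60.8 CPM in colon 1 and colon 2, against 6.37 CPM in spleen. The ratios were 8.52 (4.09 to 20.5) and 9.54 (4.76 to 22.4). Cxcr4, the receptor for CXCL12 that holds lymphocytes in bone marrow and lymphoid tissue, was the second most abundant in the colon and the most abundant in spleen. Its level was 344.7 CPM in colon 1 and 381.2 CPM in colon 2, against 150.5 CPM in spleen, giving ratios of 2.29 (1.93 to 2.73) and 2.53 (2.18 to 2.96). Cxcr4 was in 22.3% and 22.2% of colon cells and 11.1% of spleen cells at equal depth. Its call is the only one that another scaling removed: without ribosomal protein genes in the totals its log2 ratios were 0.99 and 1.11, in place of 1.20 and 1.34. The heat shock and early-response list that marks tissue digestion summed to 9131 and 10347 CPM in colon 1 and colon 2 and 5204 CPM in spleen, and its part in these differences was not tested.

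The order of levels was Ccr2, Cxcr4, Ccr4, Cxcr6, Cxcr3, Ccr1, Ccr6, Ccr3 and Ccr8 in both colon libraries. In colon 2 the intervals overlapped between neighbours from Ccr4 down to Ccr1, and between Ccr3 and Ccr8. In colon 1 those of Ccr1 and Ccr6 overlapped as well. The spleen order began with Cxcr4, Ccr2, Cxcr3 and Ccr4, and the intervals of Ccr2 and Cxcr3 overlapped there, as did those of all neighbours from Ccr3 down to Cxcr6. These levels are UMIs, which are not scaled by gene length.

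At equal depth 33.8% of colon 1 cells and 34.2% of colon 2 cells held none of the 9 receptors, against 78.3% of spleen cells. A cell with 2 receptors was seen in 18.2% and 17.8% of colon cells, against 1.79% of spleen cells, and a cell with 3 in 3.77% and 6.08%, against 0.16%. The mean number of receptors per cell was 0.94 and 0.99 in colon 1 and colon 2, against 0.24 in spleen. The colon libraries were alike in this measure and both lay far from spleen.

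**Figure D2:**
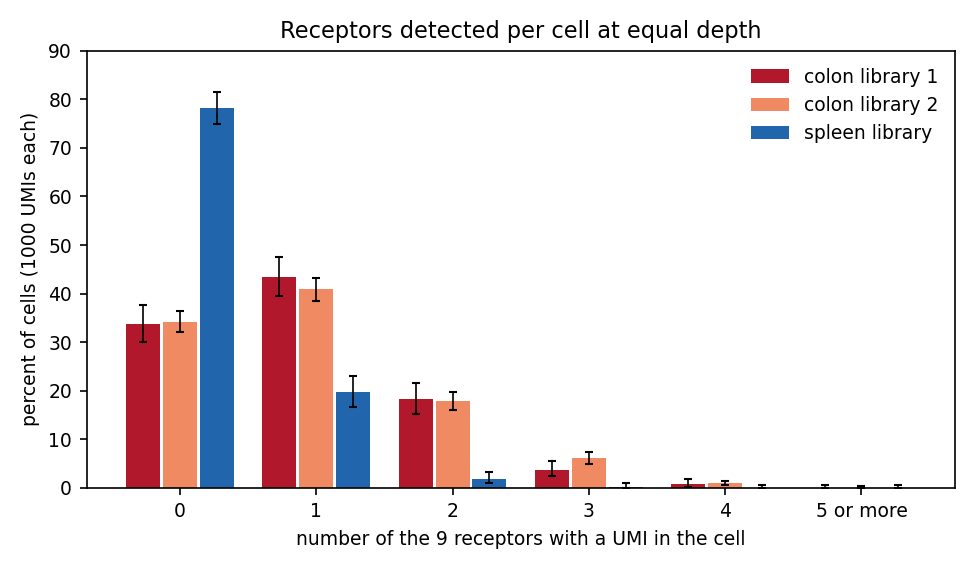
Percent of cells (vertical axis, each cell thinned to 1000 UMIs) by the number of the 9 receptors with a UMI in the cell, in colon 1, colon 2 and spleen, with exact 95% binomial intervals. The bar at 0 receptors is 33.8% and 34.2% in the colon libraries and 78.3% in spleen.

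Of 9 other signalling chemokine receptors, 5 were compared and 2 were called higher in colon and 0 lower, with a median log2 ratio of 0.85 and 0.93, against 0.03 and 0.05 over all genes compared. Over all those genes 11.7% were called higher and 4.45% lower, against which this and the following list counts should be read. Among those called, Ccr9, the receptor for the gut chemokine CCL25, had 99.7 and 155.5 CPM in the colon libraries, against 13.5 CPM in spleen. Ccr7, which directs cells into lymph nodes, had 244.2 and 258.6 CPM in colon 1 and colon 2 and 135.4 CPM in spleen, and was not called. Among 7 other chemoattractant receptors 4 were compared: Ltb4r1 (100.5 and 156.8 CPM in the colon libraries, 4.78 CPM in spleen) and Gpr183 (151.6 and 161.4 CPM, against 74.8 CPM) were called higher. Ccr9 and Ltb4r1 were compared only because of their colon level, so a colon excess was built into their entry. S1pr1, the receptor that lets lymphocytes leave lymphoid organs, was called lower, with 75.01 and 100.6 CPM in colon 1 and colon 2, against 364.7 CPM in spleen. Of the 17 G protein and effector genes compared only Gng2 was called, higher in colon. Of 9 desensitisation genes compared, Rgs2 was called higher, at 1137.1 and 1123.2 CPM against 286.6 CPM in spleen, and Rgs3 and Rgs19 lower.

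Within the colon, cells were divided by whether they held a UMI of Gata3 or of Maf. Gata3 itself had 503.5 and 494.6 CPM in colon 1 and colon 2, against 296.2 CPM in spleen, and Maf had 952.7 and 1115.2 CPM, against 187.9 CPM. Gata3 was detected in 31.7% and 33.6% of colon 1 and colon 2 cells, Maf in 64.3% and 72.3%, Gata3 without Maf in 12.4% and 10.4%, and Maf without Gata3 in 45.1% and 49.2%. Detection depends on depth: Gata3-only cells had a median of 1524 and 1888 UMIs, and Maf-only cells 1853 and 2043. A cell called zero may still express the gene, so these classes are ranges of detection, not cell types. The same rule of 50 CPM and at least 2-fold in both colon libraries was applied to the classes, and since both classes come from the same libraries, the libraries are the only repeat.

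Gata3-detected colon cells had less Ccr2 and less Cxcr4 than Gata3-zero cells, and more Ccr8. Ccr2 had 579.6 CPM in Gata3-detected cells and 877.1 CPM in Gata3-zero cells of colon 1, and 491.7 and 784.2 CPM in those of colon 2, with log2 ratios of -0.60 (-0.81 to -0.39) and -0.67 (-0.80 to -0.55). Cxcr4 had 251.2 against 390.9 CPM in colon 1 and 240.5 against 460.6 CPM in colon 2, with log2 ratios of -0.64 (-0.97 to -0.32) and -0.94 (-1.12 to -0.76). These differences repeated in both libraries but stayed under 2-fold. Across the 3037 genes compared, 0.428% were called higher in Gata3-detected cells and 0.23% lower, and 0 of the 7 receptors compared were called. Ccr8 lay outside the rule because of its low level, with 45.9 CPM in Gata3-detected and 9.53 CPM in Gata3-zero cells of colon 1 (19 and 8 UMIs), and 26.9 and 9.59 CPM in those of colon 2 (38 and 24 UMIs). Its log2 ratios were 2.27 (1.01 to 3.67) and 1.49 (0.71 to 2.29). Of the cells that held a Ccr8 UMI, 72.7% (49.8 to 89.3, exact binomial) in colon 1 and 60% (45.2 to 73.6) in colon 2 also held Gata3, against 30.2% and 32.9% of the cells without Ccr8. At equal depth these shares were 61.1% against 22.5% and 43.8% against 24.7%.

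The other receptors moved with Gata3 less evenly between the libraries or between settings. Cxcr3 had 49.5 CPM in Gata3-detected and 121.1 CPM in Gata3-zero cells of colon 2, a log2 ratio of -1.29 (-1.69 to -0.91), and 70.04 and 94.1 CPM in those of colon 1, where the interval of -0.43 (-1.09 to 0.20) included 0. The value of Cxcr3 depended on depth: with cells thinned to 1000 UMIs its log2 ratios were -1.57 in colon 1 and -1.71 in colon 2, and with cells of 1500 to 3000 UMIs they were -1.25 and -1.47, past 2-fold in both libraries. As first computed, Cxcr3 reached 50 CPM in both libraries only in Gata3-zero cells, so a deficit with Gata3 was built into its entry. At equal depth 9.76% and 10.1% of Cxcr3-detecting cells of colon 1 and colon 2 held Gata3, against 24.6% and 26.3% of the cells without Cxcr3. Cxcr6 had 159.4 and 81.03 CPM in colon 1, a log2 ratio of 0.98 (0.47 to 1.49), and 107.5 and 95.1 CPM in colon 2, at 0.18 (-0.13 to 0.48). Ccr1 was higher in Gata3-detected cells by log2 ratios of 0.87 (0.25 to 1.48) and 0.34 (0.01 to 0.67), but the value of colon 1 was 0.12 where at least 2 Gata3 UMIs were asked of a detected cell. Ccr4 and Ccr3 had intervals that included 0 in both libraries, and Ccr6 in colon 1. The digestion-linked list summed to 10066 and 11233 CPM in Gata3-detected cells and 8669 and 9847 CPM in Gata3-zero cells, and its part was not tested. Under the 8 alternative settings tried, the direction of Ccr2, Cxcr4 and Ccr8 between these classes did not change in either library.

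**Figure D3:**
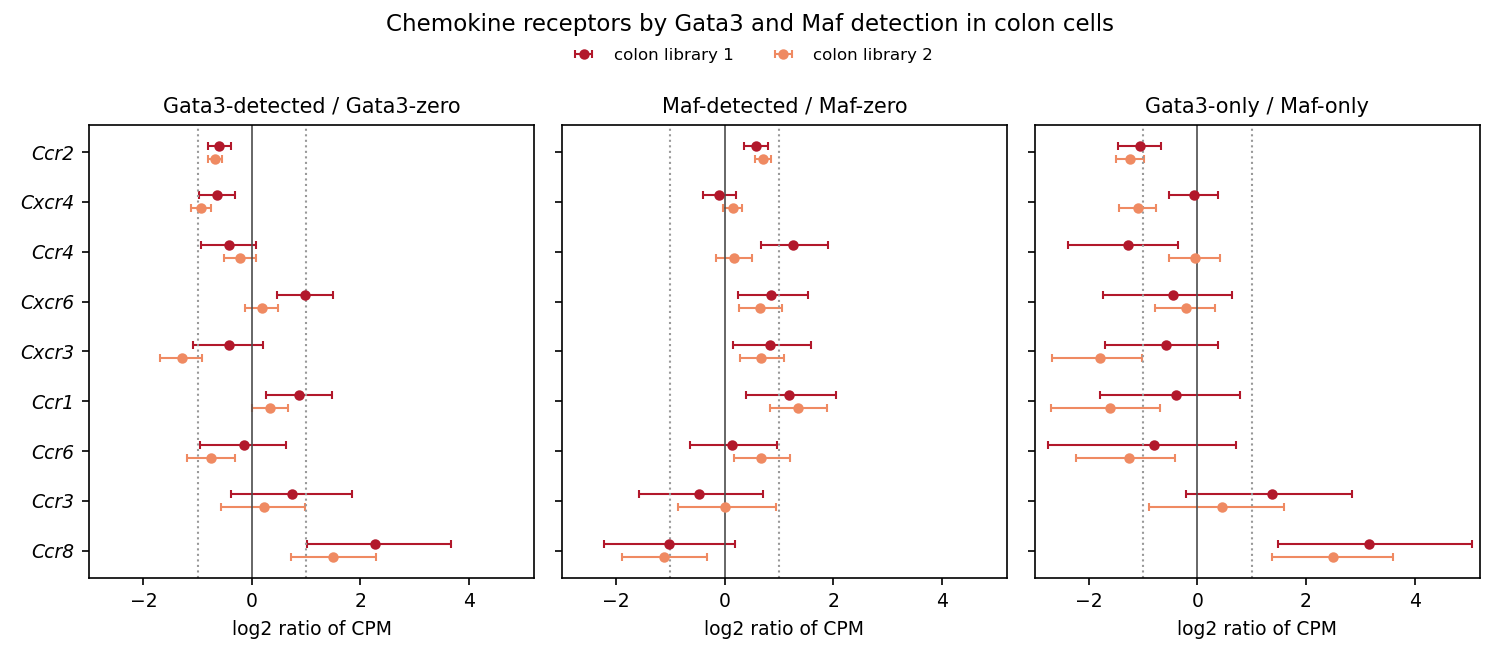
Log2 ratio of CPM (horizontal axis) for each receptor between Gata3-detected and Gata3-zero cells, Maf-detected and Maf-zero cells, and Gata3-only and Maf-only cells, in colon 1 and colon 2, with exact 95% counting intervals. Dotted lines mark a 2-fold difference: Ccr2 lies below 0 in the outer panels and above 0 in the middle panel, and Ccr8 does the opposite.

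Maf-detected colon cells had more Ccr1 and Ccr2 than Maf-zero cells, and less Ccr8. Across 3038 genes compared, 0.0658% were called higher in Maf-detected cells and 0.23% lower. Ccr1 was the only one of the 9 receptors called, at 91.9 CPM in Maf-detected and 40.6 CPM in Maf-zero cells of colon 1, and 95.2 and 37.5 CPM in those of colon 2. Its log2 ratios were 1.18 (0.39 to 2.05) and 1.34 (0.83 to 1.89). Ccr1 reached 50 CPM only in Maf-detected cells, so an excess with Maf was built into its entry. The value of colon 1 did not hold when each cell was thinned to 1000 UMIs, where it was -0.09. Maf-detected cells had a monocyte, macrophage and dendritic list sum of 19.8 and 38.5 CPM, against 5.08 and 21.4 CPM in Maf-zero cells, and Ccr1 kept its call without every cell that held such a UMI. Ccr2 had 869.04 against 581.7 CPM in colon 1 and 747.8 against 457.6 CPM in colon 2, with log2 ratios of 0.58 (0.36 to 0.80) and 0.71 (0.56 to 0.86). Of Ccr2-detecting cells 72.5% and 81.7% also held Maf, against 57.01% and 61.6% of cells without Ccr2, and at equal depth 58.6% and 66.7% against 45.6% and 52.5%. Cxcr3 and Cxcr6 were likewise higher with Maf in both libraries, by log2 ratios of 0.84 and 0.68 for Cxcr3 and 0.86 and 0.65 for Cxcr6, each with an interval above 0. Ccr8 had 16.3 against 33.02 CPM in colon 1 and 12.4 against 26.8 CPM in colon 2, with log2 ratios of -1.02 (-2.22 to 0.19) and -1.11 (-1.88 to -0.32). Cxcr4 and Ccr3 had intervals that included 0 in both libraries, and Ccr4 differed by 1.26 in colon 1 and 0.16 in colon 2.

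For Ccr2 and Ccr8 the ratios were larger between cells that held only Gata3 and cells that held only Maf. Of 3017 genes compared, 1.49% were called higher in Gata3-only cells and 1.79% lower, and of the 7 receptors compared 1, Ccr2, was called lower and 0 higher. The count changed with depth: Ccr2 and Cxcr3 were called lower with thinned cells, and Ccr1, Ccr2, Ccr6 and Cxcr4 with cells of 1500 to 3000 UMIs, while Ccr8 was called higher with thinned cells and in 3 other settings. At 8.71 and 7.74 CPM in Maf-only cells as first computed, Ccr8 could be compared only through its Gata3-only level, so an excess was built into those calls. Likewise Ccr1, Ccr6 and Cxcr3, as first computed, reached 50 CPM in both libraries only in Maf-only cells. A deficit in Gata3-only cells was thus built into their entry. Ccr2 had 474.6 CPM in Gata3-only cells and 989.5 CPM in Maf-only cells of colon 1, and 365.02 and 862.2 CPM in those of colon 2. The log2 ratios were -1.06 (-1.47 to -0.68) and -1.24 (-1.50 to -0.99). At equal depth 21.6% of Gata3-only and 45.7% of Maf-only cells of colon 1 held a Ccr2 UMI, and 25.1% and 45.9% of those of colon 2. Ccr8 went the other way, at 77.8 against 8.71 CPM in colon 1 (10 and 5 UMIs) and 43.6 against 7.74 CPM in colon 2 (16 and 15 UMIs). Its log2 ratios were 3.16 (1.48 to 5.06) and 2.49 (1.38 to 3.61), and at equal depth 6.76% against 1.09% and 5.59% against 1.16% of cells held it. Of the other 7 receptors, 6 had a log2 ratio below 0 in both libraries without reaching 2-fold in both. These were Cxcr3 (-0.59 and -1.79), Cxcr4 (-0.06 and -1.10), Ccr1 (-0.39 and -1.61), Ccr6 (-0.80 and -1.25), Ccr4 (-1.29 and -0.04) and Cxcr6 (-0.46 and -0.21). For each of them the interval of at least 1 library included 0, and Ccr3, at 1.38 and 0.45, had intervals that included 0 in both. The digestion-linked list summed to 12465 and 13034 CPM in Gata3-only cells and 8320 and 9342 CPM in Maf-only cells, and its part in the difference was not tested. A colon epithelium list of 6 genes summed to 62.2 and 73.5 CPM in Gata3-only cells and 22.6 and 36.1 CPM in Maf-only cells, of which Epcam alone made up 54.5 and 70.8 CPM, against 17.4 and 28.4 CPM, and its part was not tested either.

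Cells that held both transcripts did not always lie between the other classes. Ccr1 was highest in cells with both Gata3 and Maf, at 133.1 CPM in colon 1 and 117.5 CPM in colon 2, and had 33.9 and 44.2 CPM in cells with neither. In colon 1 its interval with both (94.2 to 182.7) overlapped those of Maf-only (51.3 to 96.9) and Gata3-only cells (21.9 to 112.2), while in colon 2 it overlapped neither of them. Cxcr6 was likewise highest with both, at 203.1 and 112.8 CPM, although in colon 2 Maf-only cells, at 106.9 CPM, were close. Ccr2 in cells with both, at 626.8 and 536.1 CPM, was near its level in cells with neither, at 633.6 and 517.6 CPM. Cxcr4 was lowest with both in colon 1, at 185.6 CPM against 396.8 CPM in Gata3-only and 412.9 CPM in Maf-only cells. In colon 2 it had 248.4 CPM with both, 217.9 CPM in Gata3-only and 466.7 CPM in Maf-only cells. Cells with both had a median of 1996 and 2328 UMIs and cells with neither 1653 and 1737, and the part of depth was not tested.

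When cells were grouped by Gata3 or Maf UMIs per 1000 UMIs, Ccr2 followed Maf stepwise. In colon 1 it had 662.9, 772.4, 890.1 and 1306.1 CPM in cells with 0, 1, 2 to 3 and 4 or more Maf UMIs, and in colon 2 it had 493.1, 714.8, 862.9 and 1057.2 CPM. By Gata3 UMIs the step lay between 0 and 1: Ccr2 had 846.8, 494.2, 597.4 and 425.5 CPM in colon 1 and 751.6, 493.7, 431.2 and 417.9 CPM in colon 2. Cxcr4 had 379.8, 253.97, 146.5 and 191.5 CPM by Gata3 in colon 1 and 433.6, 239.3, 202.9 and 154.8 CPM in colon 2. Ccr2 and Cxcr4 were thus both lowest among cells with several Gata3 UMIs. Ccr8 had 12.5, 54.9, 45.1 and 63.8 CPM by Gata3 in colon 1 and 10.3, 30.1, 28.5 and 46.4 CPM in colon 2, with wide intervals above 0 Gata3 UMIs. By Maf UMIs Ccr8 had 23.3, 13.4, 9.32 and 0 CPM in colon 2, and 23.03, 23.6, 17.9 and 16.1 CPM in colon 1. The last steps hold few cells. The neighbouring intervals overlap there for Ccr2 and Cxcr4 by Gata3 and for Ccr8 by Gata3 or Maf. For Ccr2 by Maf, the intervals at 2 to 3 and at 4 or more UMIs did not overlap in either colon library.

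**Figure D4:**
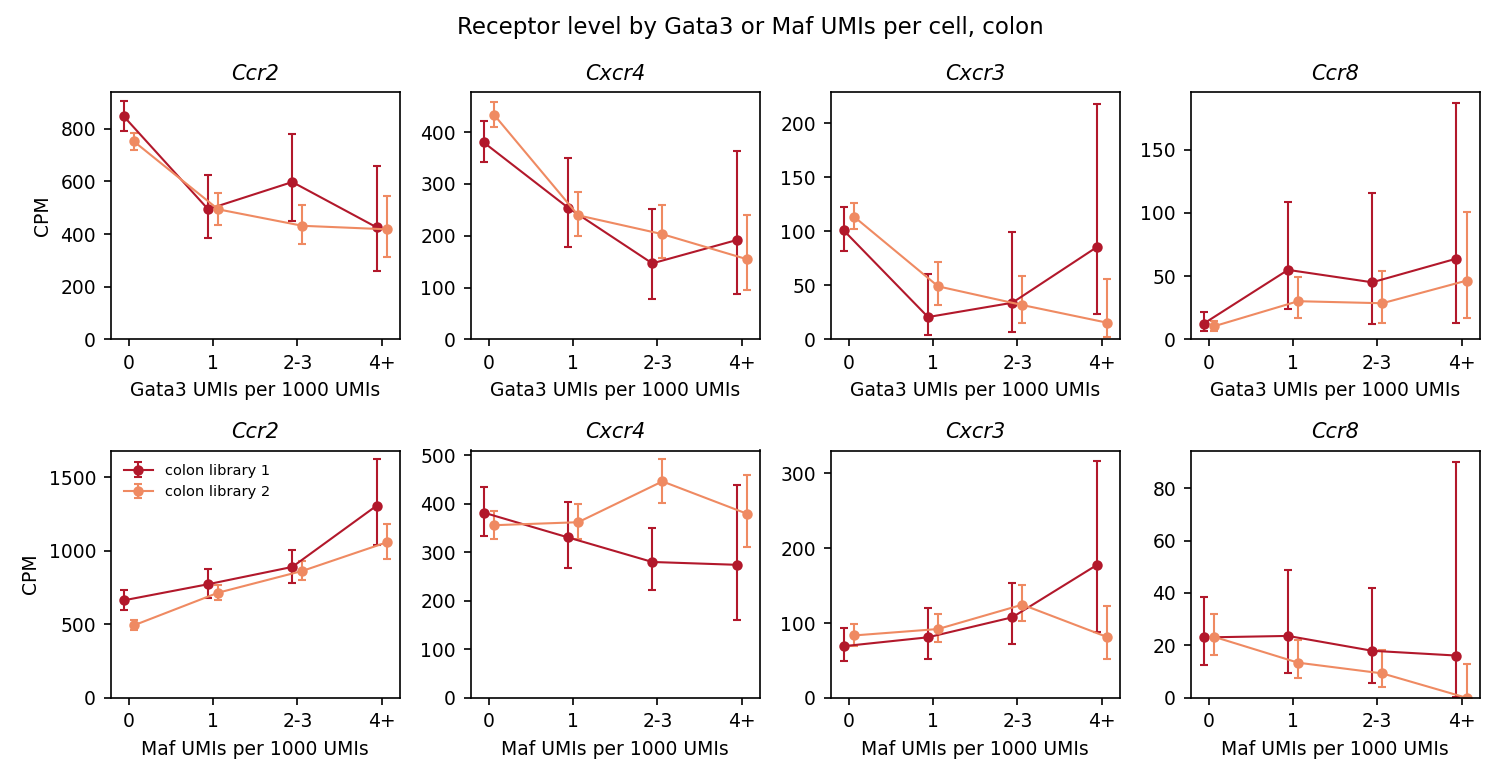
CPM (vertical axes, each with its own scale from 0) of Ccr2, Cxcr4, Cxcr3 and Ccr8 in colon cells grouped by their Gata3 UMIs (upper row) or Maf UMIs (lower row) per 1000 UMIs, in colon 1 and colon 2, with exact 95% Poisson intervals. Ccr2 is 662.9 CPM at 0 and 1306.1 CPM at 4 or more Maf UMIs in colon 1, and Ccr8 is lowest at 0 Gata3 UMIs in both libraries.

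The other pathway genes gave few calls between the colon classes. Ccr7 and S1pr1, the receptors of lymph node entry and exit, were called lower in Maf-detected than in Maf-zero cells, with log2 ratios of -1.58 and -1.67 for Ccr7 and -1.50 and -1.59 for S1pr1. S1pr1 reached 50 CPM in both colon libraries only in Maf-zero cells, so the direction of its call was built into its entry. None of the G protein or desensitisation genes was called between Gata3-detected and Gata3-zero cells, where 16 and 6 of them were compared.

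Few receptors could be followed by class in spleen with any precision. Ccr2 had 81.96 CPM in Gata3-only and 142.1 CPM in Maf-only spleen cells, on 27 and 20 UMIs. Cxcr3 had 54.6 CPM in Gata3-only and 142.1 CPM in Maf-only spleen cells (18 and 20 UMIs), a log2 ratio of -1.38 (-2.38 to -0.38), the same direction as in the colon libraries. Between Gata3-detected and Gata3-zero spleen cells, however, Cxcr3 had a log2 ratio of -0.12 (-0.84 to 0.56), and between Maf-detected and Maf-zero spleen cells 1.16 (0.46 to 1.84). Cxcr4 had 166.96 CPM in Gata3-only and 134.95 CPM in Maf-only spleen cells, a log2 ratio of 0.31 (-0.47 to 1.14) whose interval included 0. Ccr4 had 62.7 CPM in Maf-detected and 25.6 CPM in Maf-zero spleen cells (15 and 26 UMIs), a log2 ratio of 1.29 (0.27 to 2.26). The share of cells did not show this excess: at equal depth 2% (0.24 to 7.04) of Maf-detected and 2.53% of Maf-zero spleen cells held Ccr4.

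Among pairs of receptors in the same colon cell, Ccr1 and Cxcr4 were seen apart. Ccr1 had 47.7 CPM in Cxcr4-detecting and 89.9 CPM in other cells of colon 1, and 46.4 and 100.2 CPM in those of colon 2, with log2 ratios of -0.91 (-1.70 to -0.19) and -1.11 (-1.53 to -0.71). Cxcr6 and Ccr1, by contrast, were seen together: Ccr1 had 160.3 CPM in Cxcr6-detecting and 64.3 CPM in other cells of colon 1, and 113.5 and 75.5 CPM in those of colon 2. The log2 ratios were 1.32 (0.58 to 2.0) and 0.59 (0.18 to 0.98). Cxcr6 was also higher in Ccr2-detecting cells, at 133.9 against 79.4 CPM in colon 1 and 126.4 against 64.5 CPM in colon 2, with log2 ratios of 0.75 (0.23 to 1.29) and 0.97 (0.65 to 1.30). In reverse, Ccr2 in Cxcr6-detecting cells was at 0.006 (-0.29 to 0.29) in colon 1 and 0.41 (0.27 to 0.55) in colon 2. Ccr2 was higher in Ccr1-, Ccr4- and Cxcr3-detecting cells of both libraries as well, with log2 ratios of 0.48 and 0.39, 0.50 and 0.24, and 0.55 and 0.56. Ccr2 in Ccr8-detecting cells was lower by 1.31 on the log2 scale in colon 1 (-2.19 to -0.56), but at -0.32 (-0.69 to 0.03) in colon 2 the interval included 0. Ccr3 in Ccr8-detecting cells rested on 3 and 5 UMIs. For every one of the 9 receptors, detecting colon cells had a higher median UMI count than the other cells, and the part of depth in these pairs was not tested.

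**Figure D5:**
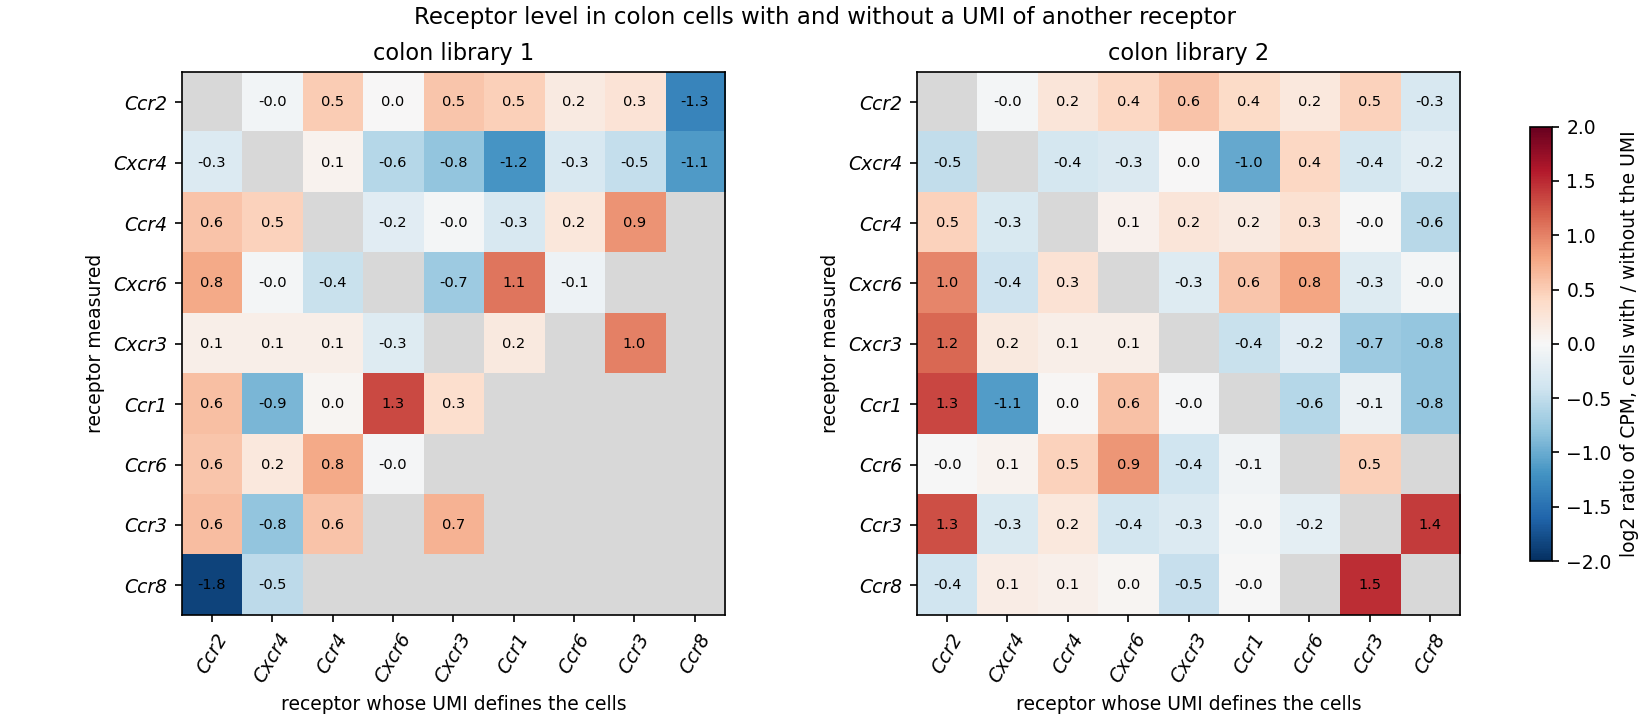
Log2 ratio of the CPM of the receptor on the vertical axis between cells with and without a UMI of the receptor on the horizontal axis, in colon 1 and colon 2. Grey squares are a receptor against itself or a pair with under 5 UMIs, and Ccr1 with Cxcr4 is below 0 and Ccr1 with Cxcr6 above 0 in both libraries.

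Lists of transcription factors and colon markers were also read in receptor-detecting cells, and those given here were named after their values were seen. Cxcr4-detecting colon cells had more Bcl6, the factor of follicular T cells, at 71.6 CPM against 8.39 CPM in other cells of colon 1 and 84.6 against 29.3 CPM in colon 2. They also had more Tcf7, a factor of resting and memory T cells, at 38.2 against 8.39 CPM and 15.5 against 5.09 CPM (16 and 21 UMIs), and less Klrg1, at 350.997 against 854.9 CPM and 430.4 against 1217.9 CPM. Ccr2-detecting cells were the reverse for Bcl6, at 15.8 against 43.7 CPM in colon 1 and 24.3 against 80.4 CPM in colon 2, and for Tcf7, at 3.15 against 34.01 CPM and 1.80 against 17.7 CPM (2 and 4 UMIs). Prdm1, which encodes the effector factor BLIMP-1, was higher in Ccr2-detecting cells, at 113.4 against 55.1 CPM and 98.1 against 41.99 CPM. Each of these differences had a counting interval on 1 side of 0 in both libraries. Ccr8-detecting cells had more Il1rl1, the IL-33 receptor gene, at 1119.4 against 276.2 CPM in colon 1 and 530.8 against 238.1 CPM in colon 2. Ccr3-detecting cells did so as well, at 645.03 against 292.1 CPM and 516.3 against 238.9 CPM. Cxcr3-detecting cells had less Il1rl1, at 142.2 against 329.9 CPM and 75.2 against 277.7 CPM.

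The genes most like each receptor were picked in colon 2 by their ratio between detecting and other cells, and their value was then read in colon 1. Ccr3 had too few detecting cells, and of the 32 genes named for the other 8 receptors 12 were again at least 2-fold higher in colon 1. Of these, Mogs for Ccr6 had a colon 1 interval that included 0, at a log2 ratio of 1.21 (-0.21 to 2.40) on 7 UMIs in detecting cells. For Ccr8 the 12 included Penk, the proenkephalin gene, with log2 ratios of 3.76 in colon 1 and 2.15 in colon 2. Hook3 for Ccr8 had 2.74 in colon 1 (1.30 to 3.96, 7 UMIs in detecting cells) and 2.64 in colon 2. Tbc1d4 went with Cxcr4 (2.34 and 1.99), Emp1 and Clic4 with Ccr2 (1.62 and 1.68, 1.56 and 1.49), Nkg7 with Ccr1 (1.21 and 1.45) and Tff1 with Ccr6 (2.46 and 2.40). Iigp1, Emp1 and Rcbtb2 went with Cxcr3 at 1.36, 1.28 and 1.06 in colon 1, and Cisd1 with Cxcr6 at 1.59. None of the genes picked for Ccr4 was again 2-fold higher in colon 1. Among all genes compared in colon 1, the share at least 2-fold higher in detecting cells was between 0.67% for Ccr2 and 6.59% for Ccr8.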

How the data were processed

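Sorted Foxp3-GFP+ CD4 T cells from colon (libraries of 619 and 1772 cells) and spleen (617 cells) were profiled with inDrops. The authors deposited 1 table of UMI counts per gene and cell, with no normalization; per the submitters' processing notes, TopHat2 and SAMtools and the mm10 build were used, while their versions and settings, and whether strand was used, were not given in the sources used here. Columns were assigned to libraries by cell title. UMI counts were summed per library or class and scaled to CPM, with exact Poisson intervals, and ratios with exact conditional binomial intervals (both 95%), which cover counting error only. A count of 0 was replaced by 3 counts where a ratio needed it. Library totals were 1253246, 3916649 and 1255946 UMIs in colon 1, colon 2 and spleen. A gene was compared at 50 CPM or more in both colon libraries or in the class it was set against, and called at 2-fold in the same direction in both. With 1 sample per tissue there was no test across samples; TMM factors (edgeR 4.0.16) served only as another scaling. Shares of cells used cells thinned without replacement to 1000 UMIs, with exact (Clopper-Pearson) binomial intervals. No filter was applied to the deposited cells and no doublet caller was run; cells above 2 times the median UMIs or with 2 markers of another cell type were left out as alternatives.

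The genes named were the 9 receptors, up to 4 called genes of a list with the largest ratios, and, for likeness, the 4 genes with the highest ratio in colon 2 for each receptor (at least 100 CPM and 20 UMIs in its detecting cells). Ccr7, Cxcr2, Ccl4 and the factors and markers given for receptor-detecting cells were named after their values were seen, and 1 gene of the lists is not reported here. The receptors, lists and thresholds were chosen with earlier results of these data known. Alternatives were other scalings (TMM, median of ratios, totals without ribosomal protein genes), expression minimums, a 4-fold threshold, thinned or depth-matched cells, at least 2 UMIs for detection and leaving out either colon library. Gene positions came from the mm10 annotation and promoter windows from RefSeq (GRCm38.p6). Python 3.11.15, numpy 2.4.6, scipy 1.17.1, pandas 2.3.3 and matplotlib 3.10.9 were used, and the interval and calling functions were tested on simulated data.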

Additional observations from a re-analysis of the deposited data

Results flagged for a closer look

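Comparisons were flagged where spleen moved against both colon libraries, if UMIs and ratio size passed a minimum in every library. In the 3 flagged, the log2 ratios of both colon libraries lay below 0 and that of spleen above 0. Every spleen interval included 0, and the difference between tissues was not tested, since each tissue is 1 sample. Ccr4 between Gata3-detected and Gata3-zero cells had log2 ratios of -0.42 and -0.21 in colon 1 and colon 2 and 0.0055 in spleen, too close to 0 to be flagged. Cxcr4 between Gata3-detected and Gata3-zero cells had log2 ratios of -0.64 and -0.94 in colon 1 and colon 2, and 0.088 (-0.36 to 0.53) in spleen. Cxcr4 between Gata3-only and Maf-only cells had log2 ratios of -0.057 (-0.52 to 0.38) and -1.10 in colon 1 and colon 2, and 0.31 (-0.47 to 1.14) in spleen, and the value of colon 1 was 0.20 with thinned cells. Gata3 between Maf-detected and Maf-zero cells had log2 ratios of -0.81 and -0.50 in colon 1 and colon 2, and 0.24 (-0.13 to 0.60) in spleen.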

How the results depend on the processing

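No paired analysis was possible because the result comes from no test and the spleen has 1 library. Of the 9 receptors, 6 were called higher in colon than in spleen under every other scaling and with either colon library alone, except without ribosomal protein genes in the totals (5, without Cxcr4); 8 were called with no minimum level (adding Ccr3 and Ccr8) and 4 at 4-fold (Ccr1, Ccr2, Ccr6 and Cxcr6). The share of genes called higher was 7.49% with no minimum, 9.64% at 20 CPM, 7.92% without ribosomal protein genes and 4.82% at 4-fold; the share lower was 5.50%, 5.58%, 7.99% and 0.689%, and 6.67% to 7.36% with 1 colon library.

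For Gata3-detected against Gata3-zero cells, Ccr8 was called higher at 20 CPM (1 receptor), and 1 receptor was called lower with thinned cells (Cxcr3), with cells of 1500 to 3000 UMIs (Cxcr3) and with at least 2 UMIs (Cxcr4), and 0 to 1 with 1 library. Genes higher were 0.732%, 0.768%, 0.890% and 0.531% with thinned cells, cells of 1500 to 3000 UMIs, at least 2 UMIs and 20 CPM, and 1.34% to 4.31% with 1 library; genes lower were 0.499%, 0.501%, 0.956% and 0.743%, 0.133% without cells holding a monocyte list UMI, and 0.993% to 4.57% with 1 library.

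For Maf-detected against Maf-zero cells, 0 receptors were called higher with thinned cells, where Ccr1 in colon 1 reversed to -0.086, and 1 to 2 with 1 library; 1 (Ccr8) was called lower at 20 CPM. Genes higher were 0.1004%, 0.167%, 0.132% and 0.490% in the same order of settings and 0.868% to 3.31% with 1 library; genes lower were 0.542% at 20 CPM and 0.666% to 4.23% with 1 library.

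For Gata3-only against Maf-only cells, Ccr8 was called higher (1 receptor) with thinned cells, at least 2 UMIs, no ribosomal protein genes and 20 CPM, and 0 to 2 receptors with 1 library. Lower were 2 with thinned cells (Ccr2 and Cxcr3), 4 with cells of 1500 to 3000 UMIs (Ccr1, Ccr2, Ccr6 and Cxcr4), 2 with at least 2 UMIs (Ccr2 and Cxcr3) and 2 to 5 with 1 library. Genes higher were 2.31% with at least 2 UMIs, 1.96% at 20 CPM and 4.07% to 13.5% with 1 library; genes lower were 2.70%, 2.55% and 5.42% to 12.4%. Ccr2 and Ccr8 kept their direction in both colon libraries under all 8 alternatives of each class comparison; the cause of the changes was not tested. Leaving out the cells with a monocyte list UMI was chosen after seeing the data. Depth limits Ccr1, Ccr8 and Cxcr6 in spleen, with 1 or 2 UMIs each, and Ccr8 and Ccr3 in the colon classes. As first computed, Ccr8 was under 20 CPM in Gata3-zero, Maf-detected and Maf-only cells of both colon libraries. Its calls could thus arise only through the class where it was higher. Between Gata3-only and Maf-only cells as first computed, Ccr1, Ccr6 and Cxcr3 reached 50 CPM in both libraries only in Maf-only cells. Between Gata3-detected and Gata3-zero cells, Cxcr3 did so only in Gata3-zero cells. A deficit was thus built into these entries.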

Other observations

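Transcripts of most ligands of these receptors were scarce in the sorted cells. Of 20 ligand genes 2 were compared, and Ccl2, Ccl11, Ccl17 and Ccl22 had 0 UMIs. Cxcl10, a ligand of Cxcr3, was called higher in colon, and Ccl5, a ligand of Ccr1 and Ccr3, was called lower, at 24.7 and 16.9 CPM in colon 1 and colon 2, against 113.1 CPM in spleen. Cxcl10 was compared only through its colon level and Ccl5 only through its spleen level, so the direction of both calls was built into their entry. Ccl4 had 110.9 CPM in colon 1 but 21.5 CPM in colon 2, against 3.98 CPM in spleen.

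Cxcr2, best known as a neutrophil receptor, was listed at 422.9 and 306.1 CPM in colon 1 and colon 2 and 491.3 CPM in spleen, although all 4 neutrophil markers had 0 UMIs. It was found in 58.3% of spleen cells at full depth. Ccrl2, an atypical receptor that does not signal through G proteins, had 91.8 and 91.9 CPM in colon 1 and colon 2, against 32.6 CPM in spleen.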
